A study of Mus musculus with 34 samples.

Results

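Compound 7678804 is a small molecule from the ChemBridge collection that came out of a reporter screen for modulators of microexon splicing, where it was classed as an inhibitor with no known target. It was profiled in 1 polyA+ RNA-seq library of mouse Neuro-2A (N2A) neuroblastoma cells, treated with 6.7 µM of the compound for 24 h, against 3 libraries (DMSO A, B and C) of cells given the solvent alone. The members were chosen by label: the 1 library of this compound out of 34 libraries in the series, with the 3 DMSO libraries as controls. All cells, controls included, received 0.4% DMSO, and N2A is a transformed line of neural crest origin, so it stands in for neurons only in part. The treated condition had no replicate. A rank test of 1 library against 3 cannot give an exact one-sided p below 0.25, and differences from DMSO therefore had to be read against the spread among the DMSO libraries and the error of the read counts.

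Microexons are very short exons, here up to 27 nt, that are spliced into the messages of neurons far more often than into those of other cells. Most of them keep the reading frame and add a few amino acids to proteins of vesicle traffic, the cytoskeleton, synapses and chromatin. Their recognition depends on the neuronal splicing factor Srrm4 and its relative Srrm3, which bind next to the 3' splice site of the upstream intron, and on general factors of exon definition. The inclusion of an exon is given as PSI, the percentage of the transcripts of a gene that contain it, estimated from reads that cross the exon junctions.

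The treated library held 28754199 exon-exon junction reads over the intron events of the splicing table, within the DMSO range of 20013522 (DMSO C) to 40613524 (DMSO A). The cells looked like N2A cells by their markers. Of 10 genes of the neuroblastoma lineage 9 were above 1 RPKM (reads per kilobase of transcript, scaled to the size of the library) in DMSO, and the 10 summed to 1080 RPKM in DMSO and 888 RPKM in the treated library. No marker of fibroblasts, astrocytes, blood, epithelium or endothelium reached 1 RPKM in DMSO. Among events with a DMSO PSI between 10 and 90, the SD over the DMSO libraries had a median of 3.0 PSI for microexons and 3.29 PSI for longer cassette exons.

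Microexons moved mainly towards skipping. An event was called when its PSI in the treated library differed from the DMSO mean by at least 10 and the read counts gave that direction a posterior probability above 0.95, a rule that covers counting error and carries no replicate check on the treated side. Of 594 microexons detected, 44 were called decreased, 7.41% of those detected, and 9 were called increased, 1.52%. For 42 of the 44 and 8 of the 9 the treated PSI lay beyond all DMSO values. Each DMSO library was also set against the other 2 by the same call rule, but with fewer passing controls asked for and 589 to 639 microexons detected. In these comparisons 1.25 to 1.53% of microexons were called decreased and 1.19 to 1.57% increased. The share of decreased microexons was thus above every DMSO background value and the share of increased ones lay within that range. The 44 lay in 42 genes and their differences ran from -33.1 to -10.4 PSI, with a median of -13.1.

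**Figure D1:**
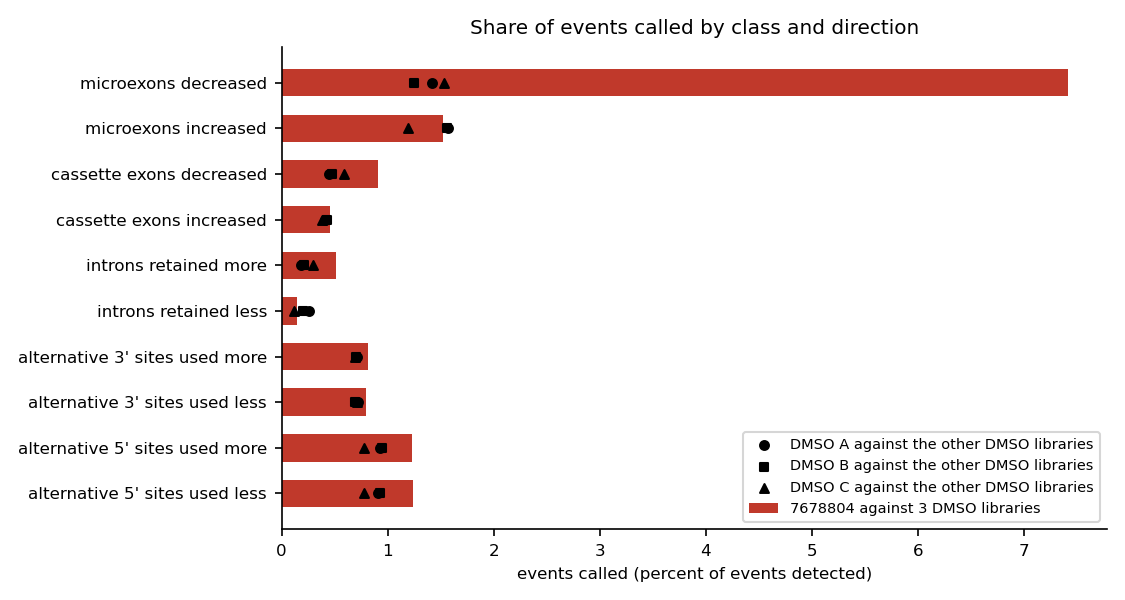
Share of detected events called (horizontal axis, percent) by class and direction: the bars stand for the treated library against the 3 DMSO libraries and the black symbols for each DMSO library against the others. The bar for decreased microexons (7.41%) reaches far beyond its symbols (at most 1.53%), while that for increased microexons (1.52%) does not.

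The same split by starting level showed where the shift was seen. Among the 155 microexons with a DMSO PSI of 10 to 90, 42 were called decreased (27.1%) and 6 increased (3.87%), with a median difference of -4.28 PSI over all 155. The DMSO libraries against each other gave 3.09 to 6% decreased and 4 to 5.56% increased. Of 215 microexons above 90 PSI only 2 were called decreased. Of 224 below 10 PSI, 3 were called increased and none decreased, and at that level a fall of 10 PSI was barely possible.

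The microexons printed here are those on which the account turns: the deepest calls, the ones with the most reads, and the Mef2d microexon that the screen's reporter carried. Each is given 5' to 3' in the direction of the transcript, with the microexon in capitals and 15 bases of the neighbouring exons in lower case, as the transcripts of GENCODE vM21 have them. The exons were matched by gene, exon length and the lengths of both introns (36 of 43 decreased microexons looked up were matched), and all positions are those of the mm9 build that the splicing table uses.
Lphn1, chr8:86450161-86450175: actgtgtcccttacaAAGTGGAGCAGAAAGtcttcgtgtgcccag
Nbea, chr3:55797970-55797978: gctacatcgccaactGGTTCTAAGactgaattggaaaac
Erc1, chr6:119684099-119684110: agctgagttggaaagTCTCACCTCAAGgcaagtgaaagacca
Synj1, chr16:90971809-90971832: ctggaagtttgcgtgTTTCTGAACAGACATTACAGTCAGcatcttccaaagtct
Zmynd8, chr2:165678368-165678379: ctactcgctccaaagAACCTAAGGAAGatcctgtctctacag
Vps29, chr5:122806803-122806814: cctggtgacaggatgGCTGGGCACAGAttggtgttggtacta
Pacsin2, chr15:83214053-83214058: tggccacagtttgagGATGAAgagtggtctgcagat
Eif4g1, chr16:20674859-20674879: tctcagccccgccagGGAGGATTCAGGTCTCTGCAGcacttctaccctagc
Psap, chr10:59760285-59760293: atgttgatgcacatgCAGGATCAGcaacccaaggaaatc
Mef2d, chr3:87965703-87965723: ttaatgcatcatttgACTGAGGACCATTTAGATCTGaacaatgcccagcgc
Their lengths are 15, 9, 12, 24, 12, 12, 6, 21, 9 and 21 nt in that order, each a multiple of 3, so that each adds or removes whole codons.

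The deepest differences were in Cdon and Lphn1. Cdon encodes an immunoglobulin-family receptor that works with Hedgehog and cadherins, and its 14-nt microexon (chr9:35283315-35283328) had a PSI of 62.0, 60.8 and 79.8 in DMSO A, B and C and 34.4 in the treated library, a difference of -33.1. The 15-nt microexon of Lphn1, an adhesion receptor of synapses, stood at 52.8, 54.3 and 41.4 in the DMSO libraries and at 23.6 after treatment, a difference of -25.9. The treated values of Cdon and Lphn1 lay 26.4 and 17.8 PSI below the lowest control, although the controls of each differed among themselves, with an SD of 10.6 and 7.03 PSI. Shank2, a scaffold of the postsynaptic density, was read thinly, with 31 reads or more per library, and its 9-nt microexon was below the lowest DMSO value by a margin of only 4.07 PSI (58.3, 64.1 and 37.6 in DMSO, 33.5 treated).

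Several genes of membrane traffic were called, and 3 of them had controls close to each other. The 9-nt microexon of Nbea, a large scaffold for sorting of membrane proteins in neurons, was included at 85.6, 85.7 and 88.3 PSI in DMSO and at 62.2 PSI in the treated library, a difference of -24.3. For Erc1, a scaffold of the presynaptic active zone, the DMSO values were 60.0, 59.5 and 58.7 and the treated value was 39.7, a difference of -19.7 beside a DMSO SD of 0.654. Synj1, the phosphatase that strips the clathrin coat from synaptic vesicles, had 64.8, 66.5 and 62.5 in DMSO and 45.5 in the treated library. In all 3 genes the controls agreed within 4 PSI of each other and the treated library lay 16.97 to 23.3 PSI below the lowest of them.

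The retromer subunit Vps29 and the lysosomal precursor protein Psap were the most deeply read of the called microexons named here. Vps29 had at least 1909 reads per library, and its 12-nt microexon stood at 53.5, 54.2 and 55.4 PSI in DMSO and 38.5 PSI after treatment. For Psap, read at least 6088 times per library, the PSI of the 9-nt microexon was 45.7, 44.9 and 45.8 in DMSO and 35.1 in the treated library. The DMSO SD of these microexons was 0.983 and 0.483 PSI, so differences of -15.8 and -10.4 PSI were more than 10 times as large as the spread of the controls. Other genes of endocytosis and traffic were called decreased too: Pacsin2, which bends membranes at the neck of vesicles, went from 37.5, 34.6 and 40.5 PSI to 24.5 PSI over its 6-nt microexon. Dnm2, the dynamin that cuts vesicles free, had 87.8, 86.2 and 89.2 PSI over a 12-nt microexon in DMSO and 77.0 PSI in the treated library. Zfyve27, Ap1b1, Git2, Eea1, Sh3glb1 and Herc4 were also called decreased, with differences of -17.8 to -10.4 PSI.

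Regulators of the cytoskeleton, put together here by their known roles and not by a list, were also among the calls. Daam1, a formin that nucleates actin filaments, had 61.7, 56.1 and 64.4 PSI over its 27-nt microexon in DMSO and 41.2 PSI in the treated library. The microtubule polymerase Ckap5 stood at 44.0, 45.3 and 44.9 PSI in DMSO and at 30.1 PSI after treatment. In both the treated value was clear of the controls. Vav2, a guanine nucleotide exchange factor that acts on the actin cytoskeleton, was called at both of its 15-nt microexons, at differences of -15.6 and -14.5 PSI. Clasp2, which anchors growing microtubules, was also called at 2 microexons of 24 nt, with differences of -12.7 and -12.4 PSI, and its relative Clasp1 at -13.6 PSI. The dynactin subunits Dctn1 and Dctn4 were lower by a similar amount, Dctn4 at 49.3, 49.6 and 50.3 PSI in DMSO and 38.8 PSI in the treated library.

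A few of the calls lay in chromatin and translation genes. Kdm1b, a histone H3 lysine 4 demethylase, had 20.8, 25.9 and 32.1 PSI over a 21-nt microexon in DMSO and 8.65 PSI after treatment. The chromatin reader Zmynd8 went from 52.2, 53.4 and 49.2 PSI to 35.1 PSI. Eif4g1, the scaffold of the cap-binding complex, had 47.3, 47.5 and 50.2 PSI over 21 nt in DMSO and 37.3 PSI in the treated library, from at least 1216 reads per library. All 3 lay below their DMSO range by at least 10 PSI. The calls in Gon4l and in 5830417I10Rik, a near-identical copy of part of it, are uncertain because reads cannot be placed in one or the other with confidence, and in Ccdc66 and Fmnl1 the treated value overlapped the DMSO values (22.3 to 46.2 PSI in DMSO and 23.5 PSI treated for Ccdc66).

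**Figure D2:**
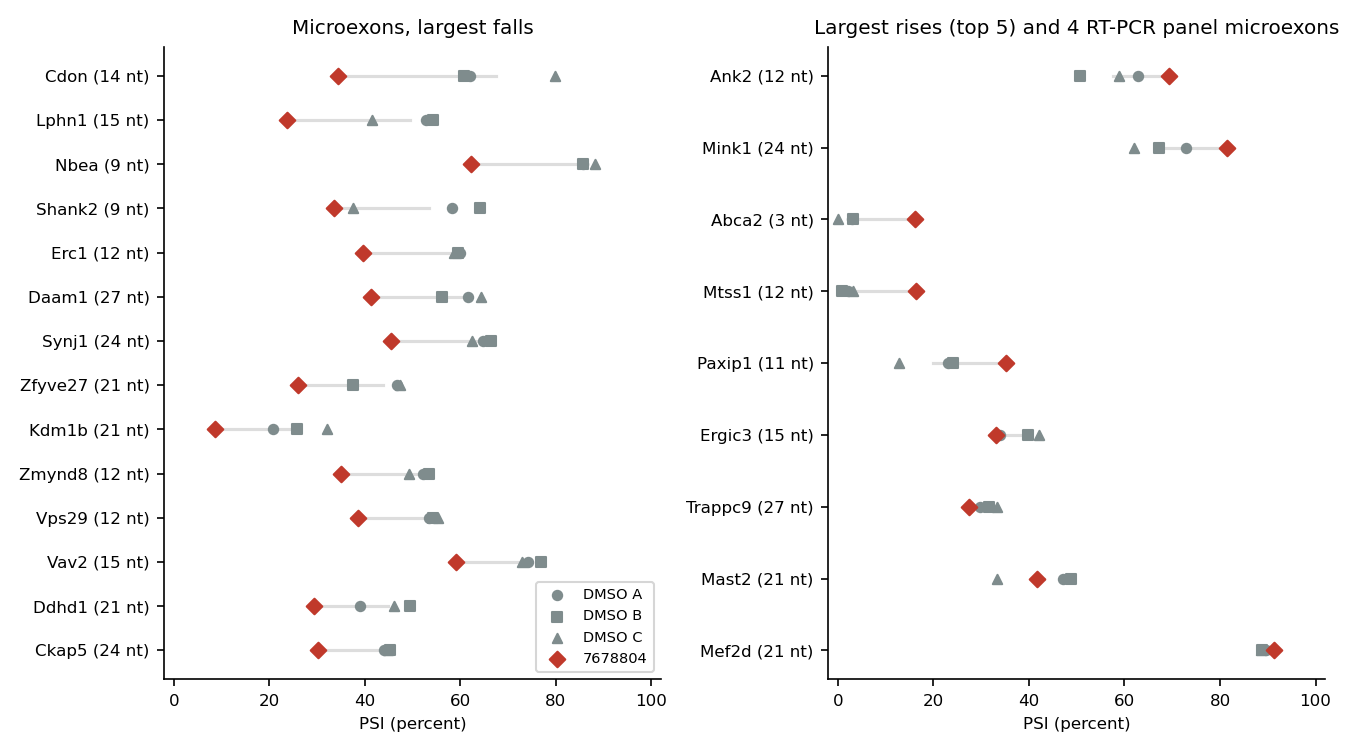
PSI (horizontal axis, percent) of the named microexons with the deepest decreases (left), the 5 with the largest increase and 4 of the study's RT-PCR panel (right) in DMSO A, B and C (grey symbols) and the treated library (red diamonds), with a grey line from the treated value to the DMSO mean. On the left the microexons were chosen so that the diamond lies below all DMSO symbols, by 26.4 PSI for Cdon and 4.07 PSI for Shank2. The diamond of Mef2d lies above its DMSO values and that of Mast2 among them.

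By function the decreased microexons were spread over several groups, fixed here as lists with earlier results of these data known. Of 32 detected microexons in trafficking genes, 6 were called decreased (18.8%, beside 7.41% of all microexons) and 1, Atp2c1, increased. Among 57 detected in genes of adhesion and the cytoskeleton, 8 were decreased (14%) and 1, Ank2, increased. Of 14 in chromatin and transcription genes 1, that of Zmynd8, was decreased (7.14%). These lists do not hold Lphn1, Shank2, Nbea, Erc1, Psap, Pacsin2, Zfyve27, Ap1b1, Eea1, Ckap5, Vav2, Dctn1, Dctn4, Kdm1b and Eif4g1. Those genes were described above by their known roles. Among members with a DMSO PSI of 10 to 90 the median differences were -7.71, -3.78 and -2.2 PSI in these lists, beside -4.28 PSI over all microexons at that level.

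The microexon for which the screen was built was not called. The 21-nt microexon of Mef2d, a transcription factor of muscle and neurons, had 89.5, 88.7 and 88.7 PSI in DMSO and 91.3 PSI in the treated library, 1.74 PSI above the highest control, so this endogenous exon was not lower. The level of the Mef2d message had a log2 ratio of RPKM of -0.38, within 2-fold. The other 3 microexons of the RT-PCR panel with which the study followed up its screen were not called either, while microexons of Zmynd8 and Clasp2, genes assayed elsewhere in the study, were called decreased as given above. Mast2, a microtubule-associated kinase, had 47.0, 48.9 and 33.3 PSI in DMSO and 41.7 PSI treated, inside the DMSO range. Ergic3, a receptor of the early secretory pathway, had 33.9, 39.8 and 42.0 PSI against 33.1 PSI, and Trappc9, a subunit of a tethering complex of the Golgi, 29.7, 31.6 and 33.2 PSI against 27.4 PSI. The last 2 lay below the DMSO values by 0.71 and 2.36 PSI. The longer neural exons of the same panel differed by 2.57 PSI (Zdhhc20, 104 nt), 1.57 PSI (Mgrn1, 66 nt) and -2.12 PSI (Asph, 75 nt), none of which was called.

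The 9 microexons called increased were of several kinds. Mtss1, which links membranes to actin, had a 12-nt microexon that was nearly always skipped in DMSO, at 2.19, 0.95 and 3.10 PSI, and reached 16.4 PSI in the treated library. An 11-nt microexon of Paxip1, a protein of DNA repair and histone methylation, had 22.97, 24.1 and 12.9 PSI in DMSO and 35.3 PSI after treatment. In the kinase gene Mink1 the values were 72.9, 67.1 and 62.0 PSI against 81.4 PSI over 24 nt. In these 3 genes the treated library lay above all controls, by 8.46 PSI or more. Abca2, Ank2, Zfp511, Ralgapa1, Rpgrip1l and Atp2c1 made up the rest, with differences of 10.9 to 16.3 PSI, and in Atp2c1 the treated value was inside the DMSO range.

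Another 4 compounds classed as inhibitors, T5635931, T5758020, T5963258 and T5985871 from Enamine, were given at the same dose and time with 1 library each. They were compared with the same 3 DMSO libraries, so a value of those controls that is off moves all of these differences together, and the 44 microexons were chosen in the treated library. Of the ones measured in each, T5635931 was at least 10 PSI below DMSO at 28 of 43, T5758020 at 28 of 42, T5963258 at 22 of 42 and T5985871 at 32 of 40. The share of all microexons this far below DMSO was not taken in these libraries. The counts therefore have no background and do not show that the overlap is particular to the 44. The median differences from DMSO were -17.3, -15.7, -10.6 and -24.6 PSI in that order. The values lay on different sides of that of 7678804 from gene to gene. Vps29 had 43.4 to 48.9 PSI in the other 4 libraries, above the 38.5 PSI with 7678804, and Dnm2 had 78.7 to 86.5 PSI beside 77.0 PSI. In contrast Dock4 had 22.4 to 53.3 PSI in those libraries and 68.5 PSI with 7678804, and Herc4 30.9 to 71.9 PSI beside 79.6 PSI. For Mef2d the other libraries had 54.6 to 83.8 PSI, all below the DMSO values, and 7678804 had 91.3 PSI. Mast2 was at 15.4 to 25.4 PSI with the other compounds and at 41.7 PSI with 7678804. With 1 library per compound these differences between compounds have no test.

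Longer cassette exons were called in both directions, with a weaker tilt towards skipping. Of 56920 detected, 518 were called decreased (0.91%) and 258 increased (0.453%), beside 0.449 to 0.585% and 0.379 to 0.432% among the DMSO libraries, so the increased share was only just above the DMSO values. Among the 2763 with a DMSO PSI of 10 to 90, 304 were decreased (11%) and 245 increased (8.87%), with a median difference of -0.79 PSI, where the DMSO libraries gave 3.9 to 5.51% and 7.75 to 8.33%. Another 214 decreased exons came from the 52650 exons above 90 PSI in DMSO, which is 0.406% of them.

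The share of decreased exons was higher among short exons. With a DMSO PSI of 10 to 90, 26.9% of exons of 3 to 9 nt were decreased, 30.8% of those of 10 to 15 nt, 24.2% of 16 to 21 nt and 26.3% of 22 to 27 nt. It was 15.7% for exons of 28 to 50 nt, 12% for 51 to 100 nt, 9.84% for those above that and up to 150 nt and 8.8% for longer ones. Increased exons showed the opposite order, from 0% of 26 exons of 3 to 9 nt to 11.7% of 625 exons above 150 nt. Between them, 5.97% of 268 exons of 28 to 50 nt were increased, with 10 to 15 nt as the exception at 10.3% of 39 exons. Of all microexons at this level 3.87% were increased and of longer exons 8.87%. The DMSO libraries against each other gave 4 to 5.56% and 7.75 to 8.33%, so the controls alone also had fewer increases among microexons. No DMSO background was made by narrower length. The order of neighbouring classes of microexons rests on 26 to 57 exons each and is not resolved.

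**Figure D3:**
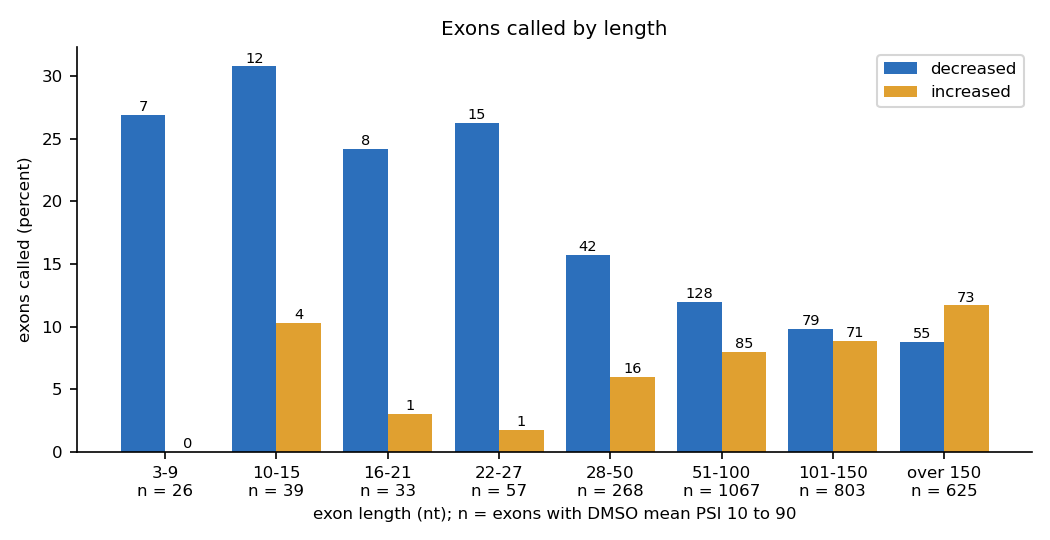
Percent of exons with a DMSO mean PSI of 10 to 90 called decreased (blue) or increased (orange) in the treated library (vertical axis) by exon length in nt (horizontal axis), with the number of exons called above each bar. The decreased share is 24.2 to 30.8% in the 4 microexon classes and 8.8% above 150 nt, and the increased share is 11.7% there. No DMSO background is drawn for these classes.

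Reading frame differed between the decreased exons of the 2 length classes. Of the 44 decreased microexons 41 (93.2%) had a length that is a multiple of 3, and so had 99 of 107 microexons of DMSO PSI 10 to 90 that were not called (92.5%). Of the decreased cassette exons 215 of 518 (41.5%) were multiples of 3, beside 1160 of 2214 uncalled ones of DMSO PSI 10 to 90 (52.4%) and 132 of 258 increased ones (51.2%). The decreased cassette exons also started from a higher level, with a median of 86.2 PSI in DMSO and 70.0 PSI in the treated library, and the part of the starting level in the difference was not tested.

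Of the decreased cassette exons read at least 20 times in each library and beyond all DMSO values, the deepest was in Armc9, a gene of the ciliary base, whose 116-nt exon had 83.5, 86.2 and 95.6 PSI in DMSO and 47.5 PSI after treatment. Carf had a 121-nt exon at 97.7 PSI or more in each DMSO library against 62.7 PSI. Both were clear of the controls but rested on 44 reads in the thinnest library. The more deeply read Pkp4, a protein of cell junctions, had a 35-nt exon at 83.3, 84.5 and 86.2 PSI in DMSO and 66.7 PSI in the treated library, from at least 665 reads each. In trafficking genes 9 cassette exons were decreased and 1 increased out of 781 detected (1.15% and 0.128%, beside 0.91% and 0.453% of all cassette exons), the decreased share being near that of all. Among them were Arfgap1 (30 nt; 53.5, 59.7 and 59.9 PSI against 40.5 PSI) and a longer exon of Dnm2 (139 nt; 41.4, 40.7 and 36.7 PSI against 29.6 PSI).

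Of the increased cassette exons under the same limits, the largest differences were in Arhgap33 and Rimbp2. Arhgap33, a GTPase-activating protein of dendrites, had a 212-nt exon at 31.2, 25.6 and 25.5 PSI in DMSO and 65.2 PSI in the treated library. In Rimbp2, which couples calcium channels to the active zone, a 143-nt exon had 62.8, 67.5 and 47.0 PSI against 96.3 PSI. Inf2 and Ankrd16 came next, with differences of 31.6 and 26.7 PSI. Exon 10 of the tau gene Mapt (93 nt) adds the second microtubule-binding repeat, and it had 29.9, 29.1 and 24.4 PSI in DMSO and 53.2 PSI after treatment, a difference of 25.4. In Arhgap33, Rimbp2 and Mapt the treated value lay above all controls. Tead1, Klhl17, Pogk, Klhl24 and Rnf213 followed, with differences of 25.3 to 23.6 PSI. In genes of adhesion and the cytoskeleton 10 cassette exons were decreased and 8 increased of 936 detected, which is 1.07% and 0.855% beside 0.91% and 0.453% of all cassette exons. A 30-nt exon of the liprin gene Ppfia1 had 31.6, 35.4 and 32.4 PSI against 20.1 PSI, and a 33-nt exon of its relative Ppfibp1 had 26.96, 24.9 and 24.2 PSI against 43.1 PSI.

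Introns were retained more often than they were lost. Of 86071 introns detected, 445 were called more retained (0.517%) and 121 less (0.141%), against 0.179 to 0.295% and 0.119 to 0.256% for the DMSO libraries among themselves, so only the share of more retained introns was above the DMSO range. The 445 were in 380 genes, with a median difference of 15.4 PSI, and 439 lay beyond all DMSO values. Bin1, a membrane-bending protein, held 3 neighbouring introns among them. The middle one had 28.2, 42.5 and 40.2 PSI in DMSO and 88.7 PSI in the treated library, and its neighbours differed by 17.01 and 38.8 PSI. The intron of 212 nt in the deubiquitinase gene Usp21 went from 28, 19.4 and 17.9 PSI to 60.0 PSI, and a 218-nt intron of Smpd2, a sphingomyelinase, from 1.79, 1.72 and 4.76 PSI to 38.5 PSI. All of these were well above every control that had a value. The middle Bin1 intron and that of Smpd2 rested on 34.4 and 22 reads in the thinnest library. The Bin1 neighbour that differed by 38.8 PSI had 24.2 reads in its thinnest library and no PSI in DMSO B.

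In 11 genes 3 or more introns were called more retained, and in 1 gene, Crocc, 3 were called less retained. Klhl17 had 5 of 10 detected introns more retained, Skiv2l, an RNA helicase of cytoplasmic decay, 5 of 23, Hdac10, a polyamine deacetylase, 4 of 11, and Radil 4 of 11. Of 128 introns detected in SR and hnRNP genes none was called, and none of 168 in the regulators of microexons. With 0.517% and 0.141% of all introns called, lists of this size would hold about 1 call or none, so these counts are near the share of all introns. Among the introns less retained were those of Zfp276 (70 nt; 43.3, 46.4 and 49.4 PSI in DMSO and 23.8 PSI treated), Giyd2 and Lime1, whose treated values were also outside the DMSO values, with differences of -20.6 and -23.3 PSI.

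Alternative splice sites were called about equally in both directions, which follows in part from the fact that the sites of a pair mirror each other. Of 30212 alternative 3' sites 247 were used more (0.818%) and 241 less (0.798%), beside 0.693 to 0.718% in the DMSO libraries. Of 22236 alternative 5' sites 273 were used more (1.23%) and 275 less (1.24%), where the DMSO libraries gave 0.774 to 0.945%. The SR protein gene Srsf5 had the deepest reads of these: a downstream 5' site of an exon on chromosome 12 was used at 28.2, 24.5 and 23.2 PSI in DMSO and 41.4 PSI in the treated library, from at least 3213 reads per library. The heterochromatin protein gene Cbx5 (9.64, 21.9 and 2.28 PSI against 51.5 PSI) had the largest difference among the alternative 5' sites named here, from 39 reads or more.

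Fits that take the spread between libraries into account called few single events. The limma fit to the log odds of inclusion over 196033 events, in which 12 libraries (the 3 DMSO, 4 histone deacetylase inhibitors with 2 each, and the treated one) share one spread, called 0 events (0%) at an adjusted p of 0.05 and 10 PSI. Of these events 11235 had an unadjusted p below 0.05, 741 of them with at least 10 PSI. This fit found none of the changes planted in simulated data, so its count of 0 carries no information on single events. A second limma fit with weights from the reads over 18781 events of intermediate PSI, added after the result of the first was seen, called 3 higher (0.016%) and 5 lower (0.0266%). The 5 lower events were the microexons of Psap (adjusted p = 0.00204 in limma) and Vps29 (adjusted p = 0.0499), the exon of Pkp4 (adjusted p = 0.0308), a 168-nt exon of Tub, at 82.3, 82.5 and 82.6 PSI against 69.9 PSI (adjusted p = 0.0465), and the upstream site of Srsf5 (adjusted p = 0.0264). The higher ones were Mapt exon 10 (adjusted p = 0.0264), a 147-nt exon of the RNA-processing gene Bclaf1, at 61.9, 61.1 and 64.6 PSI against 75.4 PSI (adjusted p = 0.0351), and the downstream Srsf5 site, the mirror of the other. The decreased microexons were chosen for differences of at least 10 PSI in these same libraries, so their unadjusted p-values here give no separate support. The Nbea microexon had a change of -1.94 log2 odds in this fit and was not called. Without DMSO A, B or C the weighted fit called 4, 2 and 1 events.

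The genes that hold the decreased microexons had levels near those in DMSO, as did most genes. Of them 37 were above 5 RPKM in DMSO or treated cells, and none differed by more than 2-fold. Of all genes above that level 1.21% were higher and 1.24% lower by more than 2-fold, so this count is near the share of all genes. The median log2 ratio of RPKM of the 37 was -0.05, beside -0.06 for all genes above that level.

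Gene expression was given by the authors as 1 merged RPKM value for DMSO and 1 for the treated library. Of 9643 genes above 5 RPKM in either, 117 were more than 2-fold higher (1.21%) and 120 more than 2-fold lower (1.24%), on the scale of log2(RPKM + 0.5). Of the 117, 49 carried symbols of predicted genes, pseudogenes or small RNAs, and so did 19 of the 120. To give the levels a spread, junction reads were summed per gene in each library, scaled to the library's total of such reads (junction RPM) and fitted with limma over the same 12 libraries. Of 11024 genes in that fit 742 rose (6.73%) and 954 fell (8.65%) at an adjusted p of 0.05. Among the genes past 2-fold in RPKM that it covered, 30 of 31 higher ones rose and 66 of 71 lower ones fell, and none went the other way.

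Antioxidant and detoxification genes that the transcription factor NRF2 drives rose together. NRF2 is held down by KEAP1, a protein whose cysteines react with oxidants and electrophiles, and when released it binds antioxidant response elements near genes of glutathione, thioredoxin and iron metabolism. Of 22 listed NRF2 targets in the junction fit, 14 rose and none fell (63.6%, beside 7.56% of all genes matched to the fit). The median log2 ratio of RPKM over 23 members above 5 RPKM was 0.66, a fold of 1.58.

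Heme oxygenase Hmox1, which breaks down heme, had the largest rise of RPKM of the genes named here, from 94.6 to 362 RPKM (3.81-fold). Its junction RPM was 192, 207 and 218 in DMSO A, B and C and 859 in the treated library, a log2 change of 2.06 ± 0.12 (SE; limma adjusted p = 8.61e-07). Srxn1, which repairs oxidised peroxiredoxins, had 1.75, 1.46 and 1.85 junction RPM in DMSO and 11.4 after treatment, a log2 change of 2.74 ± 0.24 (limma adjusted p = 1.79e-05), and its RPKM went from 12.7 to 39.5. The quinone reductase Nqo1 had 17.2, 20.2 and 19.5 junction RPM against 53.4. All 3 treated values were far above the DMSO libraries. Slc7a11, the cystine importer that feeds glutathione synthesis, rose from 4.84 to 13.5 RPKM (2.63-fold) and the epoxide hydrolase Ephx1 from 13.2 to 30.8 RPKM (2.29-fold).

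Enzymes of the glutathione and thioredoxin systems were in part among the rises and in part not past the fit. Gclc and Gclm, the catalytic and modifier subunits of the enzyme that limits glutathione synthesis, rose 1.58-fold and 1.68-fold in RPKM, the glutathione reductase Gsr 1.63-fold and the thioredoxin reductase Txnrd1 1.67-fold, to 290 RPKM. Thioredoxin itself (Txn1), the peroxiredoxin Prdx1 and the glutathione transferase Gstm1 did not pass, with folds of 1.06, 1.16 and 1.41 in RPKM (limma adjusted p = 0.785, 0.442 and 0.106). For Gclc the junction RPM was 174, 178 and 180 in DMSO and 294 in the treated library. NADPH suppliers rose as well: Me1 1.75-fold, G6pdx 1.53-fold and Pgd 1.10-fold. The ferritin heavy chain Fth1 rose 1.68-fold and the autophagy receptor Sqstm1 1.54-fold. The next steps of the pentose phosphate pathway did not pass, Taldo1 with a log2 ratio of RPKM of -0.44 and Tkt with -0.48 (limma adjusted p = 0.164 and 0.0551), and the message of NRF2 itself, Nfe2l2, had a fold of 1.13 (limma adjusted p = 0.144).

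Windows at the start sites of these genes were searched for TGACNNNGC, the core of the antioxidant response element, on both strands from 250 bases before to 50 bases after each start in RefSeq (GRCm38.p6). It was present for 3781 of 27025 genes (14%), for 7 of the 18 NRF2 targets above 5 RPKM with a window (38.9%), and for 6 of the 11 of them that rose (54.5%): G6pdx, Gclm, Me1, Pgd, Srxn1 and Txnrd1. In the sterol list, used below, 4 of 23 genes had it (17.4%). The stretches around the match are shown for 3 of the genes that rose, because they let a reader see the element in its place, with the match in capitals on the strand of the gene, where each of these matches reads as the reverse complement.
Gclm, chr3:122245383-122245471, plus strand: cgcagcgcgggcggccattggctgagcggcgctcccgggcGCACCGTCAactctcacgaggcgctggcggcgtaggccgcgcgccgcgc
Txnrd1, chr10:82859074-82859162, plus strand: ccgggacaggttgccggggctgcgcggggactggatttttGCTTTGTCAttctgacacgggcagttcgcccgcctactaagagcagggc
G6pdx, chrX:74428889-74428977, minus strand: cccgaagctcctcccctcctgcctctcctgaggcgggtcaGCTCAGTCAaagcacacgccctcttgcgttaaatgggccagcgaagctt
The matches lie at -134, -92 and -57 bases from the start site. A match of these letters is a description of the sequence, and binding was not measured. The list holds known NRF2 targets and their sequence is the same whatever the cells were given. The shares are therefore no test of the compound. Prdx1, which did not pass the fit, had a match too.

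Genes of sterol and fatty acid synthesis moved the other way. This pathway builds cholesterol from acetyl-CoA and is switched on by the SREBP factors when membrane sterol is low. Of 29 list members in the junction fit 15 fell (51.7%, beside 7.68% of all matched genes) and none rose, and the median log2 ratio of RPKM over 32 members was -0.50. Fdps, the farnesyl diphosphate synthase, had the lowest ratio, 121 RPKM in DMSO and 49.7 RPKM in the treated library, and had no junction value. Mvd, a decarboxylase earlier in the pathway, fell from 37.7 to 17.9 RPKM, with 122, 117 and 110 junction RPM in DMSO and 62.8 after treatment (log2 change -0.88 ± 0.13, limma adjusted p = 0.000695). The desaturase Scd2 had 1062, 1124 and 1128 junction RPM in DMSO and 615 in the treated library. Tm7sf2, Nsdhl, Mvk, Lss, Dhcr7, Fdft1, Fasn, Acly, Insig1, Srebf1 and Srebf2 fell too, with log2 changes of -1.09 to -0.30. Cyp51, Sqle, Hsd17b7 and Sc5d did not pass, with folds of RPKM from 0.914 to 1.13.

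**Figure D4:**
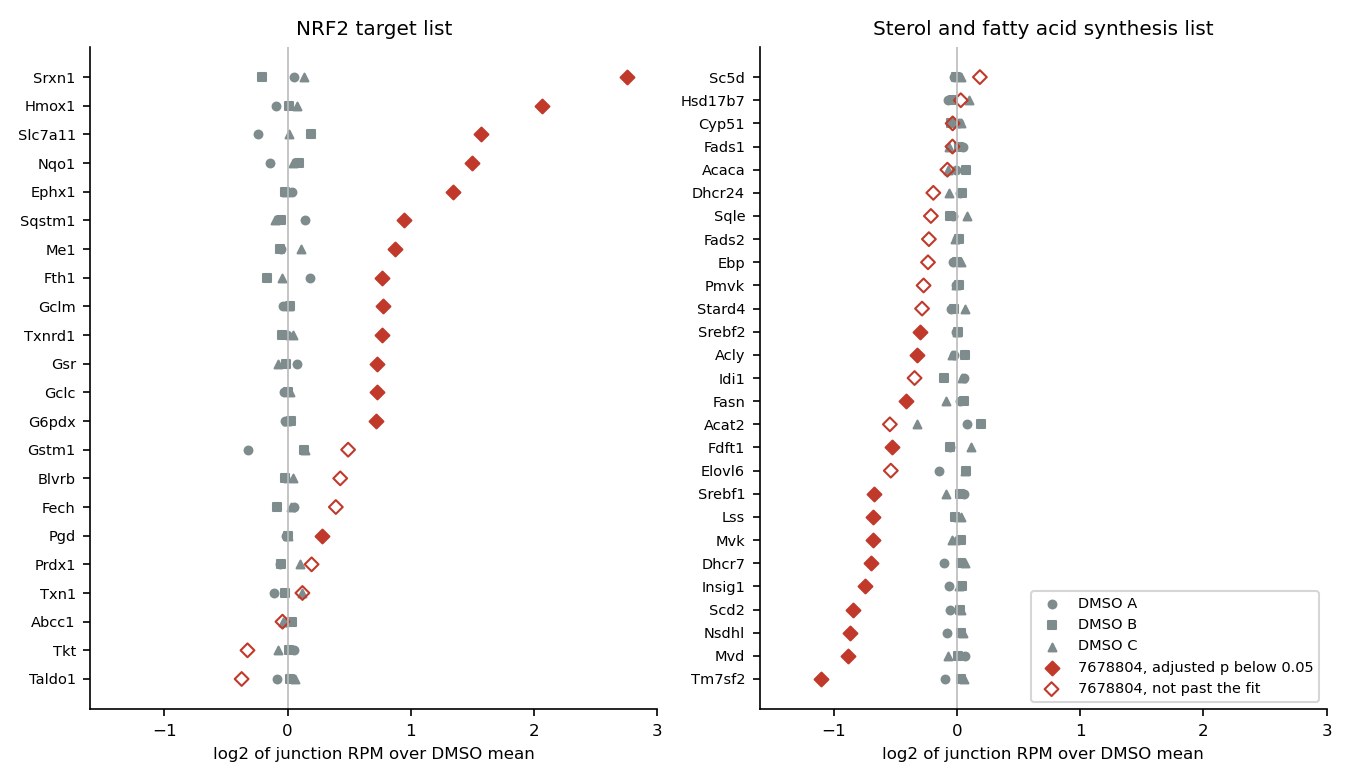
Log2 of junction RPM over the DMSO mean (horizontal axis) for named members of the NRF2 list (left) and the sterol and fatty acid list (right) in the fit: grey symbols are DMSO A, B and C, and diamonds the treated library, filled at a limma adjusted p below 0.05. The filled diamonds lie to the right for 14 of 22 NRF2 targets, while those of the sterol and fatty acid genes lie to the left, down to -1.09 (fitted log2 change) for Tm7sf2.

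Neuronal and neuroendocrine genes were called in both directions. Of 26 in the junction fit 10 fell (38.5%, beside 7.68% of all matched genes), 3 rose (11.5%, beside 7.56%) and the others did not pass, with a median log2 ratio of RPKM of -0.31 over 28 members, beside -0.06 for all genes. Dbh, which makes noradrenaline from dopamine, fell most, from 11.4 to 4.03 RPKM, with 49.9, 52.4 and 47.6 junction RPM in DMSO and 19.7 after treatment. The growth-cone protein gene Gap43 fell to 0.615 of its DMSO RPKM, the receptor gene Ret to 0.640 and Mapt to 0.629. Scg2, Scg3 and Cplx2, which serve secretory granules and vesicle release, rose (log2 changes of junction reads of 0.47, 0.35 and 0.86). Of the factors that define the lineage, Phox2a had 78.9 RPKM in DMSO and 43.2 RPKM in the treated library, and Mycn 10.9 and 4.14 RPKM, while Hand2 had 247 and 239 RPKM.

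The known regulators of microexons passed the fit no more often than genes at large. Of 26 in the junction fit 1 rose (3.85%, beside 7.56% of all matched genes), Mbnl2, 1.61-fold in RPKM. Celf1 and Ptbp2 fell (7.69%, beside 7.68%), to 0.755 and 0.831 of the DMSO RPKM. None of 29 passed 2-fold. Of all genes above 5 RPKM 1.21% were higher and 1.24% lower by that much, so this count is near the share of all genes. Srrm4, the activator of microexons in neurons, had 43.3, 40.8 and 40.6 junction RPM in DMSO and 36.6 in the treated library, and its RPKM was 10.4 and 8.11 (limma adjusted p = 0.583). Srrm3 had 19.4, 14.7 and 14.9 against 16.3 (adjusted p = 0.988 in limma) and Rbm38 47.9, 49.1 and 41.8 against 47.7 (limma adjusted p = 0.854). For these genes the treated library lay inside or just below the DMSO values.

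Some of the general splicing factors fell. In the core spliceosome 8 of 43 genes in the junction fit fell (18.6%, beside 7.68% of all matched genes) and none rose, among them Dhx16, Sf3b2, Sf3a1 and Snrpa with log2 changes of -0.62 to -0.30, and the median log2 ratio of RPKM over 50 members was -0.16, beside -0.06 for all genes. Of 24 SR and hnRNP genes 7 fell (29.2%), Srsf1, Srsf2, Srsf6, Hnrnpc, Hnrnpl, Hnrnpu and the kinase Clk2, and 2 rose (8.33%), the kinases Clk1 and Clk4 that phosphorylate SR proteins. Clk1 had 61.2, 63.5 and 59.4 junction RPM in DMSO and 97.1 after treatment, clear of the controls. Under median-of-ratios scaling of the junction reads the balance over all genes moved from 742 rises and 954 falls to 636 rises and 1132 falls.

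Other stress programmes had a few members past the fit, in which 7.56% of all matched genes rose and 7.68% fell. In the unfolded protein response 5 of 20 genes rose (25%) and 1 fell (5%), with Dnajb9 up 1.68-fold in RPKM but the central chaperone Hspa5 down to 0.812 of its DMSO level. Of 12 heat shock genes 33.3%, or 4, rose (Bag3, Chordc1, Hspa4l and Hsph1, 1.10-fold to 1.39-fold) and Hsp90ab1 fell. In the integrated stress response 2 of 23 rose (Slc6a9 and Ddit4) and 2 fell (Psat1 and Shmt2), 8.7% each way and so near the shares of all genes. The p53 targets Cdkn1a and Rrm2b rose 1.42-fold and 1.85-fold, 2 of 14 in the fit (14.3%). Of 11 genes of the metal and hypoxia list 3 rose (27.3%), with P4ha1, a collagen prolyl hydroxylase, up 1.78-fold, and 2 fell (18.2%), one of them the hexokinase gene Hk2. None of these lists had a member past 2-fold in RPKM.

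In the lists of proliferation and signalling a minority of genes passed. Of 32 genes of the cell cycle and replication 7 fell (21.9%, beside 7.68% of all matched genes) and 1 rose (3.12%, beside 7.56%). Of the 7, 4 were subunits of the replicative helicase (Mcm3, Mcm4, Mcm6 and Mcm7, log2 changes of -0.57 to -0.31), the others being Cdc6, Aurkb and Rrm1. Of 13 feedback genes of MAPK signalling 2 rose (15.4%, beside 7.56%), Phlda1 and Dusp4, and Etv4 fell (7.69%, beside 7.68%). Phlda1 went from 5.40 to 17.7 RPKM (3.09-fold), with 4.24, 4.05 and 4.45 junction RPM in DMSO and 12.5 in the treated library. Among immediate early genes Ier3 rose and Egr1 fell, 1 each of 7 in the fit (14.3% each way, beside 7.56% and 7.68%). With so few genes these counts cannot be told apart from the shares of all genes. Tiparp, one of the 2 measured targets of the aryl hydrocarbon receptor, rose 1.31-fold.

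Among the largest rises outside the lists was Ptgr1, a reductase of reactive aldehydes and prostaglandins, with 8.52, 11.1 and 11.2 junction RPM in DMSO and 33.9 after treatment. Agpat9, A4galt, Tnfrsf23, Got1l1 and Cyp4f13 rose 2.44-fold to 2.73-fold in RPKM. The values of Lrrc51 and Srr are uncertain, since these genes overlap other genes (Lamtor1, and Smg6 with Tsr1) and the library kit does not mark strand. Phlda1 and Tnfrsf23 overlap annotated noncoding genes in the same way, and Hist1h2bc shares reads with near-identical histone genes.

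The largest falls of RPKM included those of Sctr, Pnpla3 and Pdlim3. Sctr, the secretin receptor, went from 5.50 to 0.92 RPKM and from 15.1, 12.9 and 12.1 junction RPM to 2.33 (log2 change -2.50 ± 0.16, limma adjusted p = 1.46e-06). Pdlim3, a protein of actin filaments, had 33.9, 37.6 and 38.7 junction RPM in DMSO and 8.59 in the treated library, and the serotonin-gated channel Htr3a 114, 120 and 115 against 44.9. The DMSO libraries agreed closely for each of these genes. Glp1r, Stac, Entpd3, Rab27a, Tcf7l2, Hdac9, Bhlhe40, Neurl3, Pnpla3, Tppp3 and Vil1 fell to 0.251 to 0.365 of their DMSO RPKM, Vil1 being uncertain because it overlaps Usp37. Stac, Rab27a, Bhlhe40, Pnpla3 and Rimbp2 overlap antisense, noncoding or pseudogene annotations, whose reads were not told apart from theirs. Rimbp2 had 0.317 of its DMSO RPKM, but its junction RPM of 43.0, 46.5 and 37.6 in DMSO and 22.7 after treatment gave a smaller fall (log2 change -0.89). Its 143-nt exon was more included, and Mapt likewise fell while its exon 10 was more included. In bulk RNA a fall in the level of a message and a loss of the cells that carry it cannot be told apart.

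**Figure D5:**
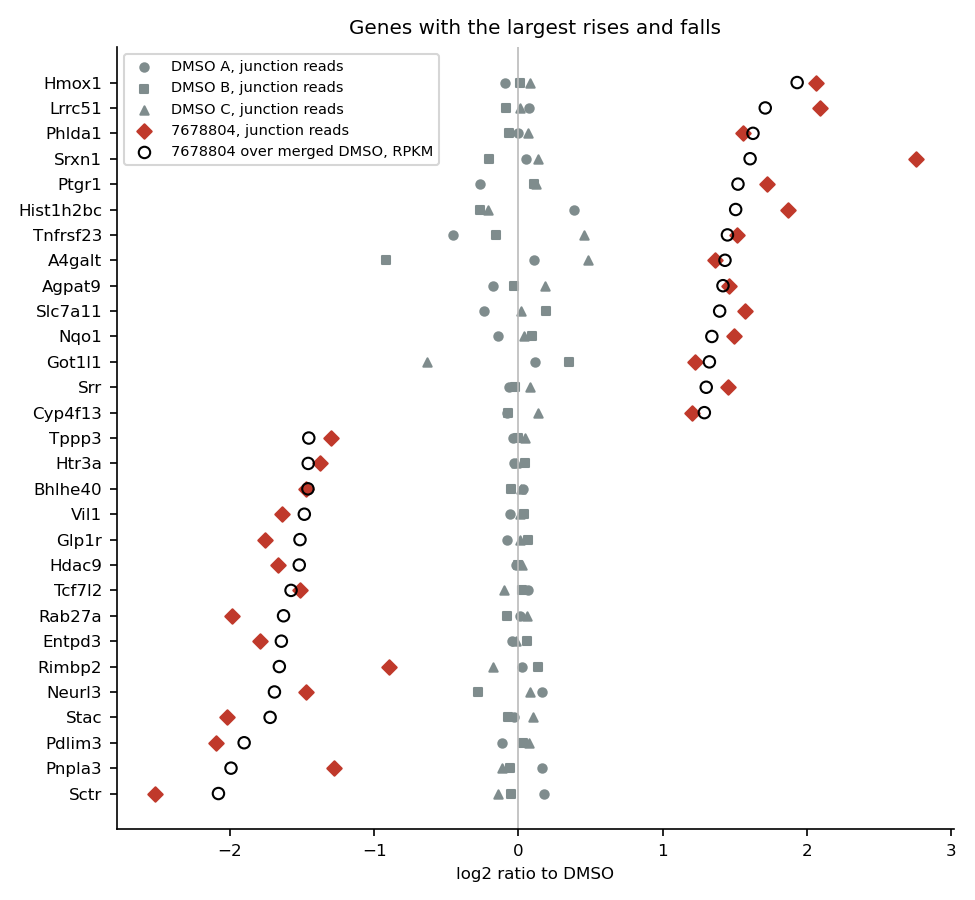
Log2 ratio to DMSO (horizontal axis) of the named genes with the largest rises and falls of RPKM: grey symbols are the junction RPM of DMSO A, B and C over their mean, red diamonds that of the treated library, and open circles the RPKM ratio of treated over merged DMSO. The genes were chosen so that the diamond lies outside the grey symbols. The genes are ordered by RPKM ratio, from Hmox1 at the top (fitted log2 change 2.06) to Sctr at the bottom (-2.50). Srxn1 has a larger fitted change than Hmox1, 2.74.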

How the data were processed

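PolyA+ RNA of N2A cells was sequenced from an unstranded kit (TruSeq RNA v2), so overlapping and antisense genes were not told apart. The deposited PSI values, a percent, were made by the authors with vast-tools on mm9, with a deposited quality string per event and library (unit other) that holds coverage, balance and corrected inclusion and exclusion reads. For the deposited RPKM values the authors ran Salmon (0.10.2 in the submitters' processing notes) on GENCODE transcripts, replicates merged. The authors' columns of edgeR fold changes, p-values and FDR, and their table of pooled splicing calls, were not used. No value column was left without a sample (0 columns).

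Events needed sufficient coverage and balanced reads in the treated library and at least 2 DMSO libraries, and for introns a minimum of 15 reads with a balance test p over 0.05. The calls took 2000 beta draws of the reads of each library. Limma 3.58.1 in R 4.3.3 was fitted to log2 odds of inclusion (0.5 added to each count) and to log2 junction RPM (1 read added, genes with a mean of at least 20 reads), with Benjamini-Hochberg adjustment. Both fits pooled the spread of 12 libraries, which the lone treated library was assumed to share. The paper counts 2 DMSO replicates, where the sample labels give 3. It calls the replicates of DMSO and of the histone deacetylase inhibitors biological, but does not say whether they are separate cultures. The p-values therefore measure the spread between these samples. The weighted fit took events of mean PSI 5 to 95. RPKM ratios had 0.5 added, and of rows with the same symbol the highest was kept. Of genes above 5 RPKM, 78.3% matched the junction fit by symbol. Tables were made in Python 3.11.15 with numpy 2.4.6 and pandas 2.3.3, and the fits and calls were tested on simulated data, where the unweighted PSI fit found no planted change and the weighted fit found most of them.

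Named were the exons of the RT-PCR panel that followed the screen, the largest called differences beyond all DMSO values with at least 20 reads in each library, called events of the event lists, all called microexons, the 15 largest rises and falls of RPKM borne out by junction reads, and members of the gene lists. Some genes and 1 sequence that met these rules are not reported here. The members and lists were chosen with earlier results of these data known. Alternatives were other sizes of change, posterior limits, coverage and balance filters, left-out DMSO libraries, scalings, pseudocounts and RPKM limits. Intervals, posteriors and floors cover counting error only.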

Additional observations from a re-analysis of the deposited data

How the results depend on the processing

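Asking for 15 PSI in place of 10 left 14 microexons decreased and 3 increased, 200 cassette exons decreased and 70 increased, 233 introns more and 62 less retained, 90 alternative 3' sites used more and 85 less, and 114 alternative 5' sites used more and 115 less. A posterior above 0.99 left 5 microexons increased, 264 introns more and 49 less retained, and 152 and 147 alternative 3' sites. With stricter coverage 287 introns were more and 53 less retained, and without the balance filter 749 and 225. Microexons of at most 15 nt gave 19 decreased. The limma replicate fit called 0 in every class and direction, but it also found no planted change in simulated data, so these counts carry no information. With read weights, added after seeing the data, it called 2 microexons decreased and 0 increased, 2 cassette exons each way, 0 introns and alternative 3' sites either way, and 1 alternative 5' site each way, 8 in all. With DMSO and the treated library alone, the unweighted fit called 2 events. Leaving out 1 DMSO library gave 41 to 46 decreased microexons. Junction fits called 3163 genes with DMSO and the treated library alone and 1222 to 1446 without 1 DMSO library, beside 1696. Genes higher and lower numbered 339 and 328 above 1 RPKM, 432 and 477 with no limit, and 370 and 538 at 1.5-fold. Of the named events 489 comparisons with a DMSO library left out kept direction and call and 47 lost the call. The difference of the Phf21a intron was -0.32 PSI without DMSO C and 28.73 PSI without DMSO B. No paired analysis was possible because the treated library carries no replicate label. The causes of these differences were not tested. Depth limits most the introns and cassette exons named with under 50 reads in a library.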
